A study of Mus musculus with 6 samples.

Results

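The 10 genes examined here encode the enzymes that make, recycle and break down glutathione, those that feed it with cysteine, and a pair of enzymes used as readouts of oxidative stress. They were taken by name from the unfiltered table of 43280 genes, in which all 10 had a row, and all 10 were among the 18606 rows tested. RNA was sequenced from submandibular glands (SMGs) of adult female mice, with 3 glands labelled Wildtype (WT) and 3 labelled Hs3st3a1;3b1 DKO. In DKO mice the heparan sulfate 3-O-sulfotransferase genes Hs3st3a1 and Hs3st3b1 were targeted, the former by a nuclease-made frameshift in the first exon and the latter by a LacZ cassette. The knockouts were on a C57BL/6 background and WT mice were littermates, while the labels name no founder line, exact age or treatment. Libraries are numbered 1, 4 and 5 in each group, and whether each came from a different mouse is not stated, so p-values measure the spread between these libraries.

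Glutathione is a tripeptide that keeps the inside of cells reduced and is conjugated to toxic compounds. Glutamate-cysteine ligase, made of a catalytic subunit (Gclc) and a modifier subunit (Gclm), joins glutamate to cysteine in the rate-limiting step, and glutathione synthetase (Gss) adds glycine. Glutathione reductase (Gsr) restores the oxidized form with NADPH. Gamma-glutamyltransferase 1 (Ggt1) starts its breakdown outside the cell, and Chac2 is a cytosolic enzyme that cleaves it inside. Transsulfuration makes cysteine from homocysteine through cystathionine beta-synthase (Cbs) and cystathionine gamma-lyase (Cth). Nqo1, a quinone reductase, and Hmox1, which degrades heme, are classical targets of the transcription factor NRF2, which also acts on Gclc, Gclm and Gsr. Cth, Chac1 and several amino acid transporters are known targets of ATF4, the transcription factor of the amino acid response.

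Library depth and purity were checked first. Total counts were between 23674258 and 29611975 per library. The SMG genes Aqp5 and Spt1 were abundant in all 6 libraries, with at least 4447 and 8386042 counts. Muc19, a mucin of the sublingual gland, had 62150 counts in WT 5 and 3906 in DKO 1, and at most 120 in the others. Bpifa2, a parotid secretory protein, had 88122 counts in WT 5 and 3632 in DKO 1, and at most 105 in the others. WT 5 and, less so, DKO 1 therefore stand apart by genes of neighbouring glands, and results are also given without them. Hs3st3a1 (41 counts in all libraries labelled WT against 32 in all libraries labelled DKO) and Hs3st3b1 (637 against 564) did not pass the threshold, with DESeq2 adjusted p-values of 0.947 and 0.976. Neither targeted gene was thus lower beyond the spread in the libraries labelled DKO, and the counts do not show the genotype that the labels give. A count per gene does not tell which exons the reads came from, and exons of Hs3st3a1 share 1295 bases with F930015N05Rik on the opposite strand. The groups are therefore called by their labels, and every direction below rests on them. Of the marker lists, granular duct genes were called lower in 11 of 12 tested, striated and excretory duct genes in 1 of 12, myoepithelial genes in 7 of 9, macrophage genes in 5 of 11, B, plasma and T cell genes in 6 of 12 and fibroblast genes in 3 of 8. Genes called higher were 2 of 10 acinar and 4 of 6 red blood cell genes. Of all rows tested, 1.88% were called lower and 1.02% higher. Of the endothelial (7), adipocyte (1) and sublingual and parotid (5) genes tested with DESeq2, 0 were called. At an unadjusted p-value under 0.05 there were 3, 0 and 0, against 12.2% of all rows. The last list holds Prol1, the Mucin10 that the paper stains as an acinar marker, and it shares Bpifa2 with the acinar list. Its median log2 fold change was -4.45, so 0 calls there do not show purity.

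Among the members, Cbs was 4.40-fold higher and Ggt1 2.17-fold lower in SMGs labelled DKO. Their partners Cth and Chac2, the enzymes that make and recycle glutathione, and Nqo1 and Hmox1 were not called. They were the 2 members of 10 with a DESeq2 adjusted p-value under 0.05, the threshold for a call, against 2.9% of all rows tested (1.02% higher and 1.88% lower). They were also the 2 members whose libraries labelled WT and DKO did not overlap, where 20.3% of all rows did not overlap (9.85% with DKO above and 10.5% with DKO below), so that count is near the background. The median log2 fold change of the 10 members was 0.02, and that of all rows was 0.00. With edgeR's quasi-likelihood test 0 members passed, and with limma-voom 0 passed, where these tools called 0.0537% and 0.0376% of all rows. An unadjusted p-value under 0.05 was seen for 3 members under edgeR and 2 under limma-voom. Of the 18606 rows, 2789 under edgeR and 2609 under limma-voom had one. DESeq2 with a replicate block called 0 members and 1.84% of all rows, and with total counts as size factors it called the same 2 members and 7.9% of all rows. Since RNA came from whole glands, fewer cells of a type and less RNA per cell cannot be told apart for any gene described here.

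**Figure D1:**
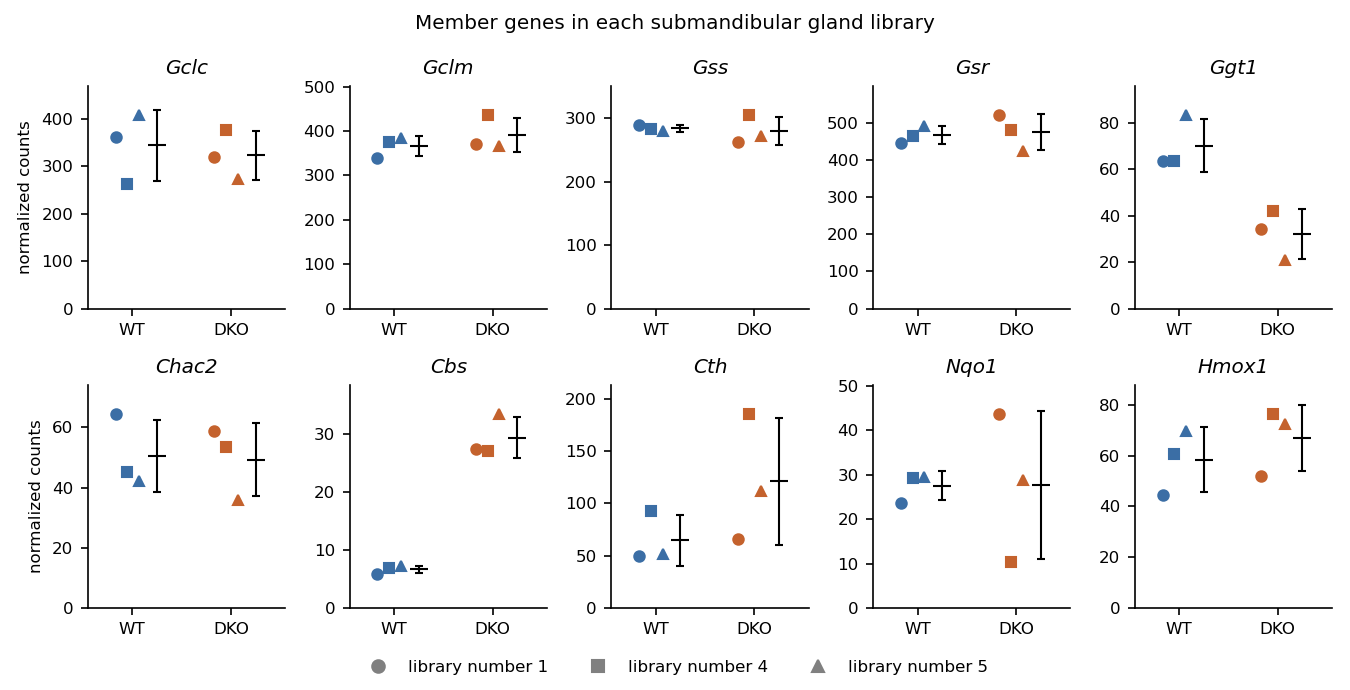
Normalized counts (y axis, from 0) of each of the 10 genes in the libraries labelled WT and DKO, 1 panel per gene. Points are libraries, with the marker giving the library number, and bars are the mean ± SD of 3 libraries. The WT and DKO points separate for Cbs and Ggt1, and overlap in the other 8 panels.

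Cbs, which condenses homocysteine with serine, changed most. It lies on the minus strand of chromosome 17 (GRCm38, 31608894 to 31637238) and no other annotated gene overlaps it. It had 6, 7 and 8 counts in WT 1, 4 and 5, and 29, 26 and 29 in DKO 1, 4 and 5. Every DKO library held more than 3 times the count of any WT library, and libraries of a group lay close together. At such low counts counting error is large, so this closeness says little about how much glands differ. After normalization Cbs rose from 6.65 ± 0.637 to 29.4 ± 3.52 (SD, n = 3), a log2 fold change of 2.14 (SE 0.54, adjusted p = 0.00667 by DESeq2). The 95% Wald interval of the fold ran from 2.11 to 9.22. The size was similar under the 17 alternatives, with log2 fold changes from 1.91 to 2.24. The call was lost under edgeR (adjusted p = 0.0766) and limma-voom (adjusted p = 0.0826), without WT 1 (adjusted p = 0.0611 by DESeq2), WT 5 (0.0525) or DKO 5 (0.0878), and without both WT 5 and DKO 1 (adjusted p = 0.212 by DESeq2, log2 fold change 2.24). Beside this, the summed level of the red blood cell list was 1013 to 1887 normalized counts in WT and 3015 to 3287 in DKO, and that of the acinar list 8900000 to 10470000 and 10310000 to 12770000. The acinar sum is mostly that of Spt1, whose counts are given above. The log2 fold changes of the 10 acinar genes ran from -4.45 to 1.23, with a median of 0.22. The part of either list in the difference of Cbs was not tested.

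Because Cbs moved most, its upstream sequence is shown, from RefSeq's GRCm38.p6 promoter set, in which 6 of the 10 members had an entry (Cbs, Gclm, Gss, Ggt1, Chac2 and Nqo1). The stretch covers chr17:31637239-31637455 on the minus strand, positions -250 to -34 from the RefSeq start, ends before the outermost GENCODE start of the gene and is 65.4% G or C. A second match, CCAAT on the gene strand at -15 to -11, lies past its end. Capitals mark a match to CCAAT on the reverse strand, the core of the CCAAT box bound by NF-Y.
Cbs upstream: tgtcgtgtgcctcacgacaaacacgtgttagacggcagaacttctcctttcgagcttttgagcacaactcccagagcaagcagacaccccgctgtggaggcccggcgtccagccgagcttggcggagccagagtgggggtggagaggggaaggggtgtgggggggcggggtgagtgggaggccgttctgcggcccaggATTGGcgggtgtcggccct
CCAAT was found, on either strand, in a promoter window of 4 of the 6 members and of 41.1% of all genes in the set. Of single windows 37.4% held it, and Ggt1, among these members, has 4 windows. The C/EBP-ATF composite letters TGATGNAA, to which ATF4 binds, were found on neither strand in any of the 6, against 4.51% of all genes. A match is only a match of letters, and its absence applies to these windows alone.

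Cth, the next enzyme of transsulfuration, lies on chromosome 3 (157894248 to 157925077, minus strand). It had 50, 95 and 58 counts in WT 1, 4 and 5 and 69, 177 and 97 in DKO 1, 4 and 5. WT 4 lay above DKO 1 after normalization, so the groups overlapped, and DKO 4 was the highest library. The means were 64.8 ± 24.4 and 121 ± 60.3 normalized counts (SD, n = 3), and the log2 fold change was 0.90 (SE 0.38), with an unadjusted DESeq2 p of 0.0166 and an adjusted p of 0.199 over all rows. Without DKO 4 the log2 fold change was 0.45 (adjusted p = 0.835 by DESeq2), and without DKO 1 it was 1.20 and passed the threshold (adjusted p = 0.0414 by DESeq2). With all 6 libraries the 95% interval of the fold of Cth, from 1.12 to 3.10, lay above 1, but the difference failed the adjustment over all rows. The ratio of Cth to Cbs normalized counts was 8.33, 13.6 and 7.25 in WT 1, 4 and 5 and 2.38, 6.81 and 3.35 in DKO 1, 4 and 5, each below every WT value. The denominator is Cbs, whose groups did not overlap by themselves, so this separation is not a second result. At the low counts of Cbs the counting error of the ratio is large.

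**Figure D2:**
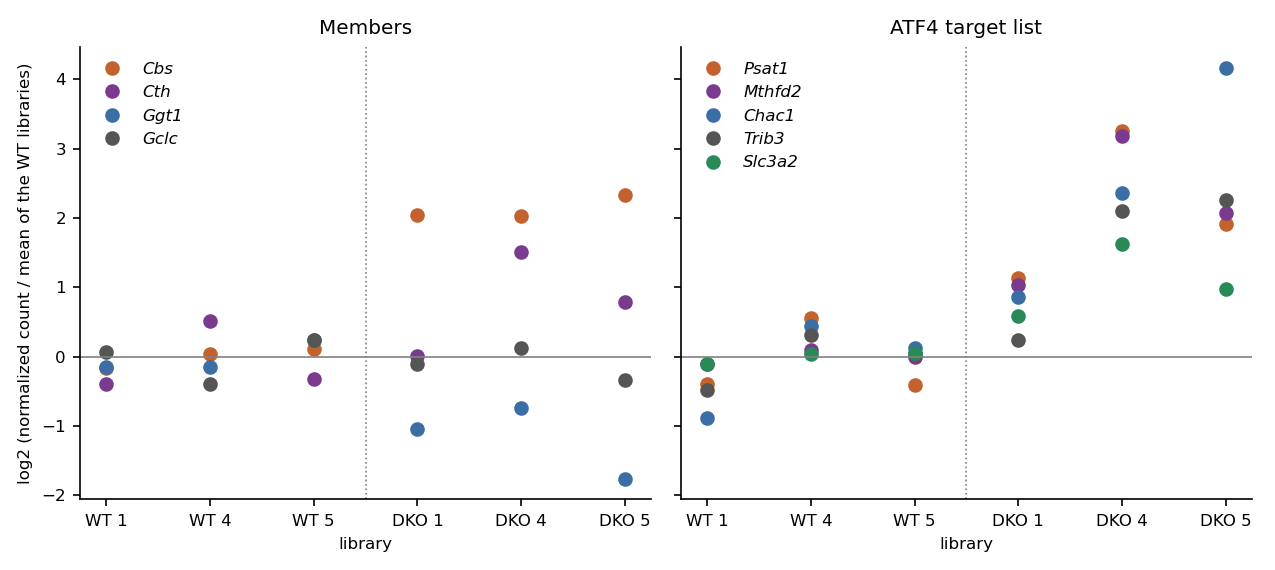
Log2 of each gene's normalized count over the mean of the libraries labelled WT (y axis) in the 6 libraries (x axis), for 4 members on the left and 5 genes of the ATF4 list on the right. Cbs, a gene of low counts, is at a similar height in the 3 libraries labelled DKO. Cth, Psat1, Mthfd2 and Slc3a2 are highest in DKO 4 and Chac1 and Trib3 in DKO 5.

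The genes that supply transsulfuration and use its cysteine were read next. In the methionine cycle and cysteine use list, 1 of 19 genes tested was called higher and 0 lower. The shares of all rows were 1.02% and 1.88%, and the median log2 fold change of the list was 0.16. The called gene was Gnmt, which uses S-adenosylmethionine to methylate glycine. It had 356, 475 and 420 counts in WT 1, 4 and 5 and 517, 646 and 540 in DKO 1, 4 and 5. Its groups did not overlap, with a log2 fold change of 0.58 (SE 0.16, adjusted p = 0.0195 by DESeq2). The call was lost under edgeR (adjusted p = 0.159), limma-voom (adjusted p = 0.205) and total counts as size factors (adjusted p = 0.108), without both WT 5 and DKO 1 (adjusted p = 0.0906), and without WT 1, WT 5, DKO 4 or DKO 5, where the highest adjusted p by DESeq2 was 0.258. Mat2a, which makes S-adenosylmethionine, had a log2 fold change of 0.32 (SE 0.12, adjusted p = 0.102 by DESeq2), and Ahcy, which releases homocysteine, one of 0.12 (SE 0.22, adjusted p = 0.914 by DESeq2). Mat1a, Bhmt2 and Gadl1 had fewer than 10 counts over all libraries and were not tested.

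The subunits of glutamate-cysteine ligase were measured at 236 to 455 counts per library. Gclc (chromosome 9, 77754535 to 77794485) had 366, 268 and 455 counts in WT 1, 4 and 5 and 337, 360 and 236 in DKO 1, 4 and 5. The lowest and highest counts lay in DKO 5 and WT 5, and the groups overlapped. Its normalized counts were 344 ± 74.4 and 323 ± 52.2 (SD, n = 3; log2 fold change -0.09, SE 0.19, adjusted p = 0.922 by DESeq2), and the 95% interval of the DKO over WT fold ran from 0.721 to 1.22. Gclm (chromosome 3, 122245557 to 122270732) had 343, 384 and 428 counts in WT and 391, 417 and 318 in libraries labelled DKO, in the same order of numbers, and the groups overlapped. Its log2 fold change was 0.10 (SE 0.14, adjusted p = 0.881 by DESeq2), with an interval of the fold from 0.881 to 1.29. The data thus leave room for a change of Gclm up to that size. Exons of Gclm share 296 bases with Gm17494 on the opposite strand and 244 with the pseudogene Gm6061, whose reads an unstranded library does not separate. The ratio of Gclc to Gclm normalized counts was between 0.698 and 1.07 in WT and between 0.742 and 0.863 in libraries labelled DKO, and these ranges overlapped.

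Gclm is a textbook NRF2 target, and Ggt1 was the other member whose promoter windows held the antioxidant response element letters TGACNNNGC, searched on both strands. These matches are shown on the gene strand, with up to 10 bases on each side and the element in capitals. Those of Gclm and of start 2 of Ggt1 are on the reverse strand. None of them overlaps a match to CCAAT or TGATGNAA.
Gclm, chr3:122245423-122245431: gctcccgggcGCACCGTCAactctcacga
Ggt1 start 1, chr10:75564173-75564181: cttgggcatcTGACACAGC
Ggt1 start 2, chr10:75568626-75568634: gaagggaggaGCTGGGTCActgctgggga
Ggt1 start 3, chr10:75571477-75571485: gtcacaagccTGACGCTGCgcctccttgc
The coordinates are those of the capitals, in GRCm38.p6, and both genes lie on the plus strand. The element was found in 2 of the 6 members with a promoter entry and in 14% of all genes in the set. Of single windows 12.4% held it, and Ggt1, with 4 windows, had more places for a match than a gene with 1. The match of Ggt1 start 1 lies downstream of that start, at 41 to 49. Ggt1 has several annotated starts, of which RefSeq lists 4 windows, and counts per gene do not tell which start was used.

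Glutathione synthetase and reductase varied little between libraries. Gss (chromosome 2, 155563181 to 155592810, minus strand) had 293, 290 and 312 counts in WT 1, 4 and 5 and 277, 292 and 236 in DKO 1, 4 and 5. After normalization the WT values of Gss lay within the range of the DKO values, and the log2 fold change was -0.02 (SE 0.15, adjusted p = 0.979 by DESeq2), with an interval of the fold from 0.806 to 1.20. Part of its exons is shared with Acss2, Gssos1 and Gssos2 on the opposite strand, so reads of these genes cannot be told apart there. Gsr (chromosome 8, 33652523 to 33698163), the most abundant member, had 450, 474 and 550 counts in WT and 549, 459 and 367 in libraries labelled DKO, and the groups overlapped. Its log2 fold change was 0.02 (SE 0.13, adjusted p = 0.976 by DESeq2), with an interval from 0.848 to 1.22. A change of Gss or Gsr beyond these bounds lies outside the 95% interval, while changes within them are not excluded.

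**Figure D3:**
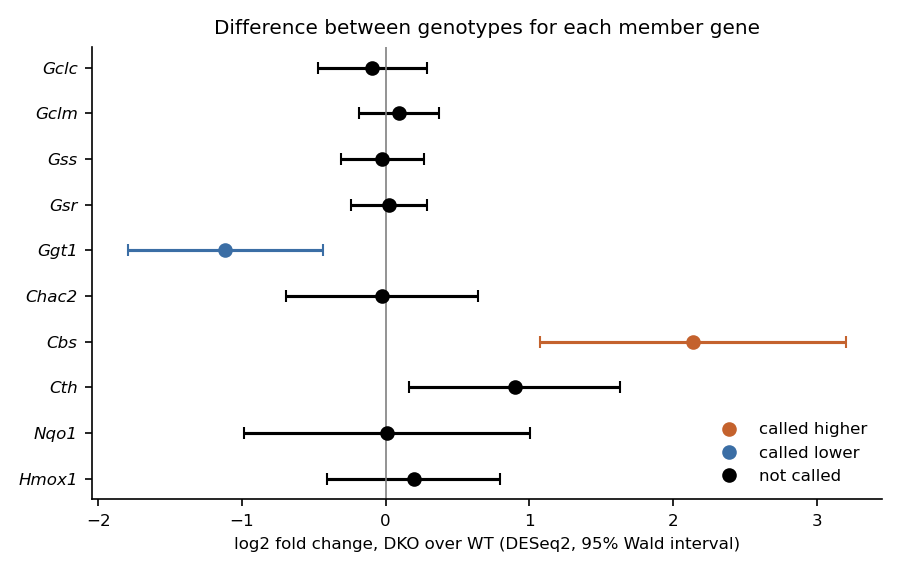
Log2 fold change of DKO over WT (x axis) for each of the 10 genes with its 95% Wald interval from DESeq2, coloured by call at an adjusted p-value under 0.05. Intervals of Gclc, Gclm, Gss and Gsr are narrow and cross 0, and those of Cbs, Cth and Ggt1 lie to 1 side of 0. The widest are those of Cbs and Nqo1.

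At the breakdown end, Ggt1, the cell surface enzyme that cleaves extracellular glutathione, fell. It lies on chromosome 10 (75561604 to 75586200, plus strand) and no other annotated gene overlaps it. It had 64, 65 and 93 counts in WT 1, 4 and 5 and 36, 40 and 18 in DKO 1, 4 and 5. All libraries labelled DKO lay below all libraries labelled WT, with DKO 5 the lowest and WT 5 the highest. The means were 70.1 ± 11.5 and 32.2 ± 10.7 normalized counts (SD, n = 3), a log2 fold change of -1.11 (SE 0.35, adjusted p = 0.0418 by DESeq2), and the 95% interval of the WT over DKO fold ran from 1.35 to 3.46. This call was close to the threshold and was lost when any 1 library was left out, with DESeq2 adjusted p-values from 0.052 (without DKO 4) to 0.399 (without WT 5), and log2 fold changes from -1.34 to -0.89. It was also lost under edgeR (adjusted p = 0.165), limma-voom (adjusted p = 0.20) and without both WT 5 and DKO 1 (adjusted p = 0.643 by DESeq2, log2 fold change -1.02). The summed level of the 12 granular duct markers moved with it, at 285400 to 316800 normalized counts in WT and 145100 to 208400 in libraries labelled DKO, and among these libraries labelled DKO it was highest in DKO 5, where Ggt1 was lowest. That of the 12 striated and excretory duct markers was 14270 to 14680 and 12510 to 13040. The myoepithelial list summed to 11130 to 12000 and 6135 to 8101 and the macrophage list to 2717 to 4443 and 1689 to 2488, and both were lowest in DKO 5, as Ggt1 was. Neither of these 2 lists had the order of Ggt1 among the libraries labelled DKO, and the myoepithelial list was highest in WT 1. The order of Ggt1 in DKO 1 and 4 rests on 36 and 40 counts, too close to rank, so this mismatch says little. The B, plasma and T cell list (1594 to 5614 and 543 to 1651) and the fibroblast list (11300 to 16170 and 8513 to 12140) overlapped between the groups. The former was also lowest in DKO 5, and the latter in DKO 4. The part of any of these lists in the difference of Ggt1 was not tested.

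Chac2 (chromosome 11, 30976707 to 30986350, minus strand) had 65, 46 and 47 counts in WT 1, 4 and 5 and 62, 51 and 31 in DKO 1, 4 and 5. The groups overlapped, with a log2 fold change of -0.03 (SE 0.34, adjusted p = 0.99 by DESeq2) and an interval of the fold from 0.618 to 1.56. Its relative Chac1, which cleaves glutathione in the same way and is induced by ATF4, had 30, 76 and 67 counts in WT and 105, 269 and 855 in libraries labelled DKO. All libraries labelled DKO lay above the libraries labelled WT for Chac1, and DKO 5 held most of the counts (log2 fold change 3.06, SE 0.94, adjusted p = 0.039 by DESeq2). Its call too was lost under edgeR (adjusted p = 0.16) and limma-voom (adjusted p = 0.325), and without WT 1 (adjusted p = 0.339 by DESeq2), WT 4 (0.0704), WT 5 (0.269) or DKO 4 (0.130). Without DKO 5 it held, at a log2 fold change of 1.80, and it also held without DKO 1 and with the replicate block. Without both WT 5 and DKO 1 it held at a log2 fold change of 3.61 (adjusted p = 0.0324 by DESeq2). Whether the change of Chac1 differs from that of Chac2 was not tested.

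In the list of other genes for glutathione breakdown, return of its amino acids and entry of cystine, 2 of 19 genes tested were called higher and 1 lower, with a median log2 fold change of 0.00. Of all rows, 1.02% were called higher and 1.88% lower. Slc3a2, the heavy chain that carries several amino acid transporters to the membrane, was higher, with 1113, 1248 and 1375 counts in WT and 1873, 3508 and 2033 in libraries labelled DKO (log2 fold change 1.13, SE 0.20, adjusted p = 8.78e-06 by DESeq2). Chac1 was the other. Dpep1, a dipeptidase that acts after Ggt1 by splitting cysteinylglycine, was lower, with 480, 357 and 579 counts in WT and 344, 236 and 177 in libraries labelled DKO. The Dpep1 groups did not overlap after normalization (log2 fold change -0.79, SE 0.20, adjusted p = 0.00853 by DESeq2). Under edgeR the adjusted p-values of Slc3a2 and Dpep1 were 0.126 and 0.159, and under limma-voom 0.167 and 0.204. The call of Slc3a2 was also lost without WT 1, WT 4, WT 5 or DKO 5 and that of Dpep1 without WT 1, WT 5, DKO 4 or DKO 5, with adjusted p-values by DESeq2 of up to 0.246 and 0.233. Without both WT 5 and DKO 1 the call of Dpep1 was lost (adjusted p = 0.054 by DESeq2) and that of Slc3a2 held. Slc7a11, the cystine carrier that pairs with Slc3a2, had 11, 1 and 6 counts in WT and 5, 27 and 20 in libraries labelled DKO, and at this depth its groups overlapped (log2 fold change 1.70, SE 0.85, adjusted p = 0.348 by DESeq2).

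Among 36 peroxidases, transferases, glutaredoxins and related enzymes that spend glutathione, 0 were called higher and 1 lower, a share near that of all rows (2.9%). An unadjusted p-value under 0.05 was seen for 8 of them, against 12.2% of all rows, and the median log2 fold change was 0.12. The called gene was Glrx, which removes glutathione from proteins. It had 86, 155 and 175 counts in WT and 66, 68 and 43 in libraries labelled DKO, and the groups did not overlap, at a log2 fold change of -1.10 (SE 0.29, adjusted p = 0.0113 by DESeq2). The Glrx call was lost under edgeR (adjusted p = 0.151), limma-voom (adjusted p = 0.221) and DESeq2 with the replicate block (0.0859), without WT 4 (0.0895), WT 5 (0.251) or DKO 5 (0.158), and without both WT 5 and DKO 1 (0.457). Gpx1, the most abundant peroxidase of the list, had a log2 fold change of 0.26 (SE 0.11, adjusted p = 0.244 by DESeq2), and Gpx4, which reduces lipid peroxides, one of 0.15 (SE 0.10, adjusted p = 0.601 by DESeq2).

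The NRF2 readouts Nqo1 and Hmox1 were not called. Nqo1 (chromosome 8, 107388225 to 107403206, minus strand) had 24, 30 and 33 counts in WT 1, 4 and 5 and 46, 10 and 25 in DKO 1, 4 and 5. The lowest and the highest library were both DKO, and the coefficient of variation was 60.2% in DKO and 11.95% in libraries labelled WT. Its log2 fold change was 0.01 (SE 0.51, adjusted p = 0.999 by DESeq2), and the 95% interval of the fold ran from 0.505 to 2.01. Changes within those bounds are not excluded by these libraries. Hmox1 (chromosome 8, 75093621 to 75100589, plus strand) had 45, 62 and 78 counts in WT and 55, 73 and 63 in libraries labelled DKO. Its groups overlapped, with a log2 fold change of 0.19 (SE 0.31, adjusted p = 0.889 by DESeq2) and an interval of the fold from 0.755 to 1.73. Hmox1 is also a gene of macrophages that clear red blood cells. The summed macrophage list was 2717 to 4443 normalized counts in WT and 1689 to 2488 in libraries labelled DKO, with Vsig4 at 0 counts in all 6, while the red blood cell list moved the other way as given above. The part of either in the level of Hmox1 was not tested.

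NRF2 itself, its partners and other known targets were read in the same way. Of 36 genes tested with DESeq2, 0 were called, against 2.9% of all rows. An unadjusted DESeq2 p-value under 0.05 was seen for 4, against 12.2% of all rows. Both edgeR and limma-voom called 0 as well. With total counts as size factors, which moved the median of all rows to -0.23, DESeq2 called 4 lower, namely Nfe2l2 (log2 fold change -0.40, adjusted p = 0.0387), G6pdx, Idh1 and Abcc1. Without WT 4 it called Abcc3 lower. The last 4 genes are named because their values were seen. The median log2 fold change of the list was 0.08. Nfe2l2, which encodes NRF2, had a log2 fold change of -0.16 (SE 0.11, adjusted p = 0.612 by DESeq2), its inhibitor Keap1 one of 0.08 (SE 0.12, adjusted p = 0.868 by DESeq2), and Bach1, a repressor at the same elements, one of -0.08 (SE 0.13, adjusted p = 0.898 by DESeq2). Txnrd1 and Srxn1, NRF2 targets of the thioredoxin system, had log2 fold changes of 0.30 (SE 0.17) and 0.01 (SE 0.22), with DESeq2 adjusted p-values of 0.427 and 0.997.

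The ATF4 list gave the most calls among the pathway lists. Of 26 genes tested, 14 were called higher and 0 lower, against 1.02% and 1.88% of all rows. An unadjusted DESeq2 p-value under 0.05 was seen for 22, against 12.2% of all rows. All libraries labelled DKO lay above all libraries labelled WT for 18, against 9.85% of all rows. The median log2 fold change was 0.87. The list shares Chac1, Slc3a2 and Slc7a11 with the breakdown list, and was chosen when its rise in these libraries was known. After Chac1, the largest log2 fold changes among its called genes were those of Psat1 (2.37), Mthfd2 (2.36) and Trib3 (1.77), enzymes of serine and folate metabolism and a feedback inhibitor, with DESeq2 adjusted p-values of 0.0228, 0.00725 and 0.00589. Atf4 itself had a log2 fold change of 0.33 (SE 0.15, adjusted p = 0.267 by DESeq2) and passed without DKO 1 (adjusted p = 0.000831 by DESeq2) and without both WT 5 and DKO 1 (0.022). The groups of Trib3 overlapped in normalized counts. With edgeR and with limma-voom 0 of the 26 were called, where 10 and 7 of all rows were. DESeq2 called 4 without WT 1, 5 without WT 5, 7 without DKO 5, 10 without DKO 4, 12 without WT 4 and 18 without DKO 1. In the same order, these fits called 151, 149, 166, 170, 817 and 740 of all rows. Without both WT 5 and DKO 1 DESeq2 called 15, and with the replicate block 17, where 183 and 343 of all rows were called. Psat1, Mthfd2 and Trib3 each lost their call without WT 1, WT 5 or DKO 5, with adjusted p-values by DESeq2 between 0.0672 and 0.267. Psat1 and Trib3 also lost it without DKO 4 (0.0862 and 0.192), and Psat1 without both WT 5 and DKO 1 (0.0585). The summed level of the list was 16340, 21550 and 20010 normalized counts in WT 1, 4 and 5 and 25250, 46410 and 34670 in DKO 1, 4 and 5. Cth had the same order of the libraries labelled DKO as this sum. Cbs had 27.5, 27.2 and 33.4 normalized counts in DKO 1, 4 and 5, from 29, 26 and 29 counts, too few and too close to rank. These are descriptions of 6 libraries and no relation was tested.

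**Figure D4:**
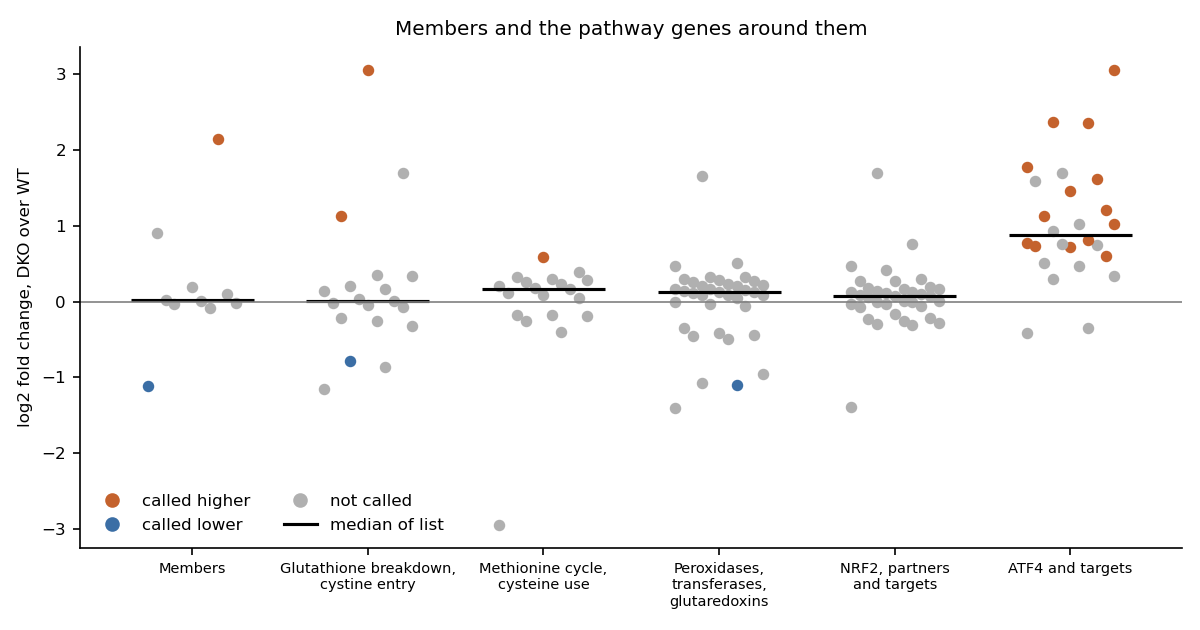
Log2 fold change of DKO over WT (y axis) of the 10 members and of the genes tested in 5 lists around them, 1 point per gene, coloured by call, with the median of each list as a bar. Genes in more than 1 list are drawn in each. Medians lie between 0.00 and 0.16 except in the ATF4 list, where it is 0.87.

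Levels of the members were compared per length, as normalized counts per kilobase of merged exons. In libraries labelled WT the order from high to low was Gsr, Gclc, Gclm, Gss, Chac2, Hmox1, Cth, Ggt1, Nqo1 and Cbs. The WT ranges of Gsr, Gclc and Gclm did not overlap, nor did those of Gclm and Gss or of Nqo1 and Cbs, while each neighbouring pair from Gss to Nqo1 overlapped. Gsr had a level of 170 ± 8.66 per kilobase and Cbs one of 0.888 ± 0.0851 (SD, n = 3) in libraries labelled WT. Gsr stood at the 83.8th percentile of all rows with a known length by its mean over the 6 libraries, Gclc at the 69.2nd, and Cbs at the 11.1th. In libraries labelled DKO Cbs had a level of 3.92 ± 0.47 per kilobase and remained the lowest member, below Ggt1 at 9.45 ± 3.12. Merged exons include those of rare transcripts, so the level of Cbs, with 7485 bases, may be understated against that of Chac2, with 1315.

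**Figure D5:**
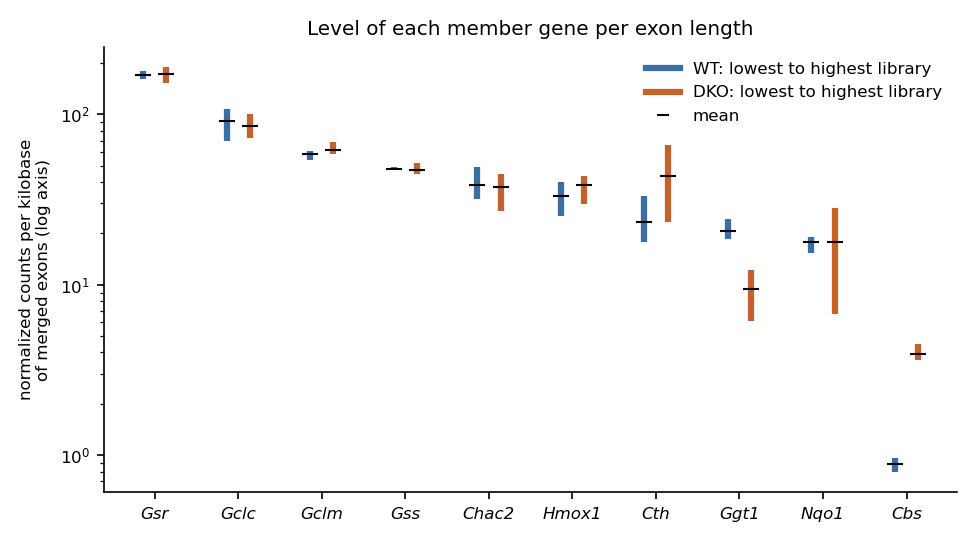
Normalized counts per kilobase of merged exons (y axis, log scale) of each gene, ordered by the mean of the libraries labelled WT. Bars run from the lowest to the highest of 3 libraries in each group and dashes mark the mean. Cbs lies lowest in both groups, and its WT and DKO bars do not overlap.

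The rows most like the called members were found among 11489 rows with a mean of at least 50 normalized counts, by the root mean square difference of log2 values centred on each gene's mean over the 6 libraries. Nearest to Ggt1 were Ctgf (0.17), Inmt (0.19) and Zbtb16 (0.23), which encode a matricellular growth factor, a methyltransferase and a transcription factor. Nearest to Cbs were Azgp1 (0.35), Chn2 (0.36) and Hba-a2 (0.39), which encode a secreted glycoprotein, a Rac GTPase regulator and an alpha globin. These rows share the libraries with the members, and rows with the same difference between the groups are near by construction.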

How the data were processed

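RNA from 3 WT and 3 DKO female SMGs was sequenced by the authors from unstranded Nextera XT libraries. Raw counts were deposited per symbol, unfiltered (43280 rows) and filtered (17527 of them, with identical values), plus a rescaled table not used here. The submitters' processing notes name STAR 2.5.2a, DESeq2, edgeR and limma, and the builds GRCm38, mm10 and GRCh38, with no role. The counting tool and annotation are not given in the sources used here.

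Rows with at least 10 summed counts (18606) were tested with DESeq2 1.42.0 in R 4.3.3, the test the study names, by the two-sided Wald test with median-of-ratios size factors and Benjamini-Hochberg adjustment over all rows. An adjusted p under 0.05 was a call. An adjusted p was not given for 2556 rows. Intervals are 1.96 SE on each side. The members and lists were chosen with earlier results of these data known. All members are named. Other genes named are up to 4 called genes per list and direction, genes fixed by role (among them Atf4, Nfe2l2 and Slc7a11), the targeted genes and, for each called member, the 3 rows with the nearest profile. Genes of the library and tissue check are named beside these. Sqor, Adgre1 and Jchain were matched as Sqrdl, Emr1 and Igj. Coordinates and lengths are from GENCODE M21 (GRCm38), matched by symbol, since the tables hold symbols only, and promoters from RefSeq (GRCm38.p6). With 3 libraries against 3, a permutation test of a single gene cannot give a two-sided p below 0.1, so none was made. Alternatives were edgeR 4.0.16, limma 3.58.1 (voom), other size factors, filters, a replicate block and left-out libraries. The scripts were tested on simulated data.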

Additional observations from a re-analysis of the deposited data

How the results depend on the processing

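Among the 10 members and the 19 other genes refitted, no called difference changed direction under the 17 alternatives. Cbs was called in 10 of the 17 and Ggt1 in 7, Cth in 1, and the other 7 members in 0. The count of members called higher was 0 under edgeR, limma-voom, the replicate block and the fit without both WT 5 and DKO 1, and that called lower was 0 under the same 4. With 1 library left out, 0 to 2 members were called higher and 0 lower. Over all rows, 539 were called, 10 under edgeR, 7 under limma-voom, 343 with the replicate block, 1469 with total counts as size factors, which shifted the median of all rows to -0.23, 183 without both WT 5 and DKO 1, and 149 to 817 with 1 library left out. In the total count fit Gclc, Gclm, Gss and Gsr had log2 fold changes between -0.34 and -0.14, near that shift. The fit without WT 5 and DKO 1 was chosen after seeing the data. The cause of these changes was not tested.

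Same-numbered libraries did not deviate together (correlations across genes of -0.13, -0.02 and -0.26). The labels do not say what a shared number means, and these correlations cannot decide whether such libraries were paired. With the replicate block the DESeq2 adjusted p-values were 0.105 (Cbs), 0.251 (Ggt1) and 0.244 (Cth), with log2 fold changes of 2.14, -1.14 and 0.84. Counting error bears on Cbs and Nqo1, the members with under 50 counts in every library.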
